A study of Culex quinquefasciatus and Culex pipiens molestus with 2 samples.

Results

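The proteins that build ribosomes in the nucleolus were followed at the transcript level in females of 2 house mosquitoes, Culex pipiens molestus and Culex pipiens quinquefasciatus. Members were the transcript models whose product description names the nucleolus, nucleolin, fibrillarin, ribosomal RNA (rRNA), the U3 small nucleolar particle, a Nop or Noc protein, or the biogenesis, assembly or production of ribosomes. Models described as helicases, as mitochondrial, as small nuclear ribonucleoproteins or as RNA polymerases were left out. The rule found 40 of the 16198 models listed in at least 1 library, and it used no measured value. For each taxon, RNA of 30 females of a laboratory strain was pooled into 1 polyadenylated, non-directional library, so a taxon cannot be told apart from its library. The sources used here give no age, blood feeding, ovarian stage or collection time. A pool of whole females of a single strain stands for that strain rather than for the taxon at large. The labels do not tie a table to a taxon. The table abbreviated Cxm was taken as molestus and the table abbreviated Cxq as quinquefasciatus, and all directions given here depend on that assignment.

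In eukaryotes a ribosome begins as a long precursor rRNA that RNA polymerase I transcribes in the nucleolus. Small nucleolar particles guide the methylation and pseudouridylation of this precursor, the U3 particle and its partners form the small subunit processome that leads to 18S rRNA, and another set of factors assembles the large subunit. In females of the yellow fever mosquito, ribosome production in the fat body is known to increase ahead of yolk synthesis. Most functional knowledge of these proteins comes from yeast and mammals, and the roles given below are those of proteins with the same names there. The CPIJ identifiers could not be paired with an entry of the reference gene table, so no position or sequence is given.

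All 40 members had reads in both libraries. Depth was similar, with 9.79 M (mega) uniquely assigned reads for molestus and 10.17 M for quinquefasciatus. RPKM gives reads per kilobase and per M assigned reads, and 3 reads on a model of 1 kb made 0.307 RPKM in molestus and 0.295 RPKM in quinquefasciatus. Reads per member ranged from 1 to 11610 in molestus, with a median of 1141, and from 6 to 7181 in quinquefasciatus, with a median of 733. Of the 40 members, 39 reached the 1 RPKM in either library required for comparison. The exception, named for that reason, was the ribosomal RNA methyltransferase CPIJ018014, with 1 molestus read (0.141 RPKM) and 6 quinquefasciatus reads (0.813 RPKM). With no replicate libraries there is no replicate check and no p-value. Intervals are at 95% and cover the counting of reads alone, which without molecular identifiers may include PCR copies of a molecule.

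The members were expressed well above the typical model. Their median level was 63.0 RPKM in molestus and 45.9 RPKM in quinquefasciatus, against medians over all 12789 compared models of 13.5 RPKM in molestus and 11.3 RPKM in quinquefasciatus. Of the 40, 18 ranked in the top 10% of all models in molestus and 15 in quinquefasciatus. The highest level in the molestus library was that of nucleolar phosphoprotein p130 (CPIJ018253), at 739.5 RPKM and rank 159 of all models. The highest level in the quinquefasciatus library was that of a nucleolar protein (CPIJ014566), at 334 RPKM and rank 280. The order of levels was largely shared, with a Spearman's rho of 0.862 between libraries over the 39 compared members. The members are not replicates and rho is given as a description.

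**Figure D1:**
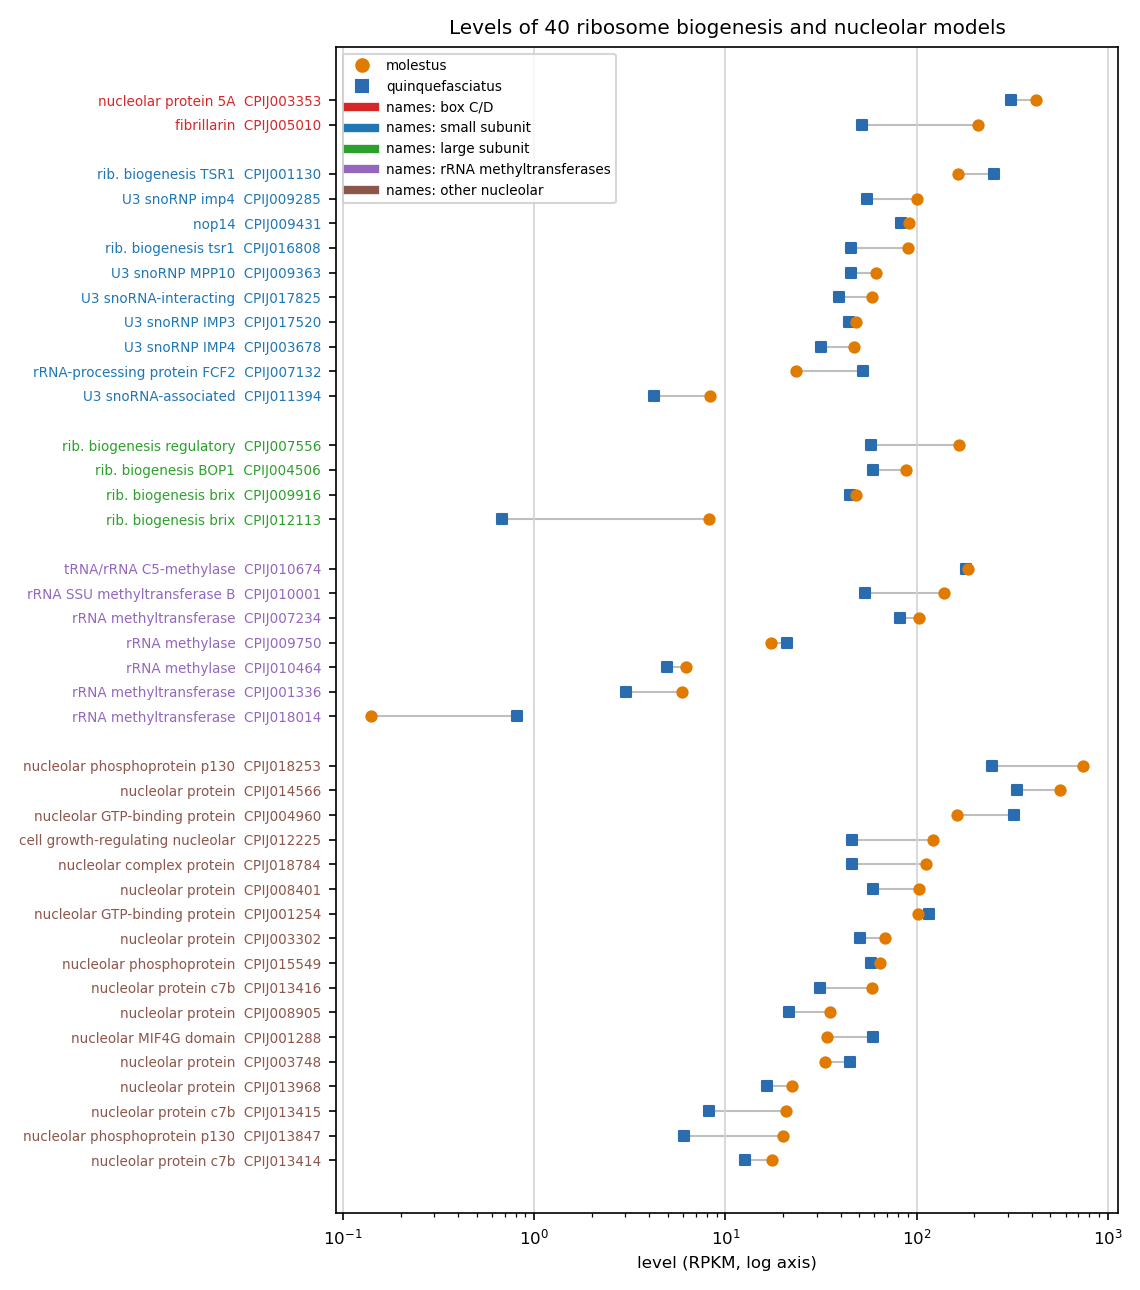
Levels of the 40 members in RPKM on a log axis, with circles for the molestus library and squares for the quinquefasciatus library, 1 library each. Names are coloured by role group, and within a group members are ordered by molestus level. Most circles lie right of their squares, with TSR1 (CPIJ001130), FCF2 and the nucleolar GTP-binding proteins among the exceptions.

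Most members stood somewhat higher in the molestus library, and few differed by much. On the scale of log2(RPKM + 1), molestus over quinquefasciatus, the ratio was above 0 for 32 of 39 members (82.1%), next to 55.4% of all compared models. That share is also the background for the counts of ratios above 0, or above 1, in the groups below. The median ratio was 0.56, against 0.18 over all compared models. In molestus, 9 of 39 members (23.1%) stood at least 2-fold higher, next to a background of 22.8% of all compared models. The share of members 2-fold higher was thus that of models in general. There, 1 of 39 (2.56%) stood at least 2-fold lower, next to a background of 18%. The interquartile range of the members lay between 0.12 and 0.93 and that of all compared models between -0.73 and 0.93. The counting interval of the RPKM ratio lay above 1 for 29 members, below 1 for 7 and across 1 for 3, and it lay above 2 for 8. These interval counts are given without a background over all models.

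The members were more abundant than most models, and the background changed with level. Among the 8029 models that reached 10 RPKM in either library, the median ratio was 0.47, with 29.0% at least 2-fold higher in molestus and 14.2% at least 2-fold lower. The 35 members that pass the same minimum had a median of 0.44, with 8 at least 2-fold higher and 1 at least 2-fold lower. Their median was close to that of all models past this minimum. The share of members 2-fold higher, 22.9%, was below the 29.0% of the background, and the share 2-fold lower, 2.86%, was below its 14.2%. Ratios above 0 made up 80% of these members and 65.8% of all models past the minimum. Scaling also moved the counts. Rescaling by the median ratio shifted all ratios by -0.30, which left 7 members at least 2-fold higher and 3 lower, a median of 0.27 and 27 of 39 ratios above 0. All compared models then had a median of -0.09, with 16.1% at least 2-fold higher, 23.7% lower and 47.3% of ratios above 0. Factors from the trimmed mean of M-values (TMM) shifted the ratios by -0.21 and gave 9 and 2 members, next to 18% and 21.8% of all models. Equalising the sum of RPKM without the most abundant models shifted them by -0.24 and gave 9 and 3 members, next to 17.1% and 22.6%.

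**Figure D2:**
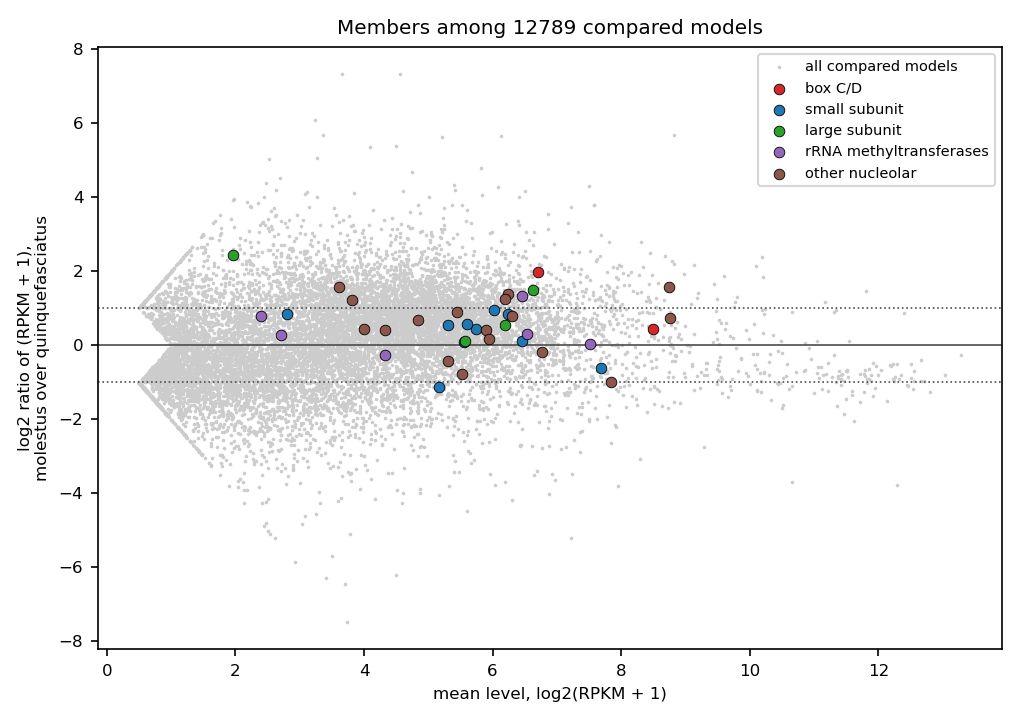
Ratio of molestus to quinquefasciatus levels as log2 of (RPKM + 1) against mean level on the log2(RPKM + 1) scale for the 12789 compared models in grey and the 39 compared members in the colours of their role groups. Solid and dotted lines mark equal levels and 2-fold. The members lie within the grey cloud, 9 above the upper dotted line and 1 below the lower.

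The 40 members together held 0.779% of reads (exact Clopper-Pearson interval 0.773 to 0.784) in the molestus library and 0.551% (0.546 to 0.555) in the quinquefasciatus library, a ratio of 1.41 (1.4 to 1.43). Cytosolic ribosomal proteins, which these factors assemble with rRNA, held 13.6% of molestus reads and 25% of quinquefasciatus reads. With their reads taken out of the totals, the shares of the members were 0.901% in molestus and 0.735% in quinquefasciatus, and the ratio was 1.23 (1.21 to 1.24). For each read on a member there were 17.5 reads on cytosolic ribosomal proteins in molestus and 45.4 in quinquefasciatus. The 3 most abundant molestus members, p130 (CPIJ018253), CPIJ014566 and nucleolar protein 5A, weighed on the sum. Without them the ratio of the members' shares was 1.22 (1.2 to 1.23). Choosing the models by their molestus level in itself favours a fall in this ratio. The 3 most abundant quinquefasciatus members were CPIJ014566, CPIJ004960 and nucleolar protein 5A, and the ratio without those was not computed. The p130 model alone took 15.1% (14.8 to 15.3) of the members' molestus reads and 7.10% (6.89 to 7.32) of their quinquefasciatus reads.

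The core of the box C/D particles, which guide methylation of rRNA, was represented by 2 members that differed in ratio. Fibrillarin (CPIJ005010), the methyltransferase of the particle, had 208 RPKM (2390 reads) in the molestus library, against 51.6 RPKM (616 reads) in the quinquefasciatus library. Its ratio of 4.03 (3.69 to 4.41) was the highest among members that reached 10 RPKM. Nucleolar protein 5A (CPIJ003353), the name of the mammalian scaffold protein Nop56 of the same particle, had 419 RPKM in the molestus library, against 310 RPKM in the quinquefasciatus library, a ratio of 1.35 (1.30 to 1.4). Both were higher in the molestus library, and their ratio intervals did not overlap. Per length, nucleolar protein 5A transcripts stood at 2.02 times the level of fibrillarin transcripts (1.92 to 2.11) in the molestus library and at 6.01 times (5.52 to 6.54) in the quinquefasciatus library. The rule found no member named for the H/ACA particles, which guide pseudouridylation.

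The small subunit factors had 10 members, of which 0 stood 2-fold or more higher in molestus and 1 stood 2-fold or more lower, next to 22.8% and 18% of all compared models. Their median log2 ratio was 0.50, and 8 of 10 ratios were above 0, next to 55.4% of all compared models. MPP10, IMP3 and IMP4 form a complex that joins the U3 particle to the precursor in yeast. IMP3 (CPIJ017520) had 47.9 RPKM in the molestus library, against 44.5 RPKM in the quinquefasciatus library, a ratio of 1.08 whose interval of 0.90 to 1.29 held 1. MPP10 (CPIJ009363), given after its values were seen to complete the complex, had 61.5 RPKM in molestus and 45.1 RPKM in quinquefasciatus, a ratio of 1.36 (1.25 to 1.49). Of the 2 models named IMP4, CPIJ009285 had 100.1 RPKM in the molestus library, against 55.1 RPKM in the quinquefasciatus library, a ratio of 1.82 (1.65 to 2.0). The other, CPIJ003678, likewise given to complete the complex, had 46.8 RPKM in molestus and 31.4 RPKM in quinquefasciatus, a ratio of 1.49 (1.28 to 1.73). In the quinquefasciatus library IMP3 and MPP10 were at nearly equal levels per length, with a ratio of 0.986 (0.854 to 1.14), whereas in molestus IMP3 stood at 0.779 of MPP10 (0.678 to 0.893). Nop14 (CPIJ009431), a processome component, had 90.8 RPKM in molestus and 83.1 RPKM in quinquefasciatus, a ratio of 1.09 (1.03 to 1.16) that fell below 1 under rescaling by the median ratio (0.889) and by TMM (0.946).

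The remaining small subunit factors included the member furthest toward the quinquefasciatus library. FCF2 (CPIJ007132), an rRNA-processing protein required in yeast for early cuts on the way to 18S rRNA, had 23.3 RPKM (187 reads) in the molestus library, against 52.2 RPKM (435 reads) in the quinquefasciatus library. It was the 1 member at least 2-fold lower in molestus, at 0.447 of the quinquefasciatus level (0.374 to 0.531). TSR1, a factor of late small subunit maturation in yeast, was the name of 2 models that went in opposite directions. CPIJ001130 had 165 RPKM (4085 reads) in molestus, against 253 RPKM (6490 reads) in quinquefasciatus, a ratio of 0.654 (0.629 to 0.680). CPIJ016808 had 89.7 RPKM (2696 reads) in molestus, against 45.4 RPKM (1418 reads) in quinquefasciatus, a ratio of 1.97 (1.85 to 2.11). Both rested on 1418 reads or more in each library, so counting error was small beside the gap between the 2 ratios. The level of CPIJ016808 was 0.543 of that of CPIJ001130 (0.517 to 0.570) in the molestus library and 0.180 of it (0.170 to 0.190) in the quinquefasciatus library. Together the reads of both models stood at a ratio of 0.891 (0.862 to 0.92), so the summed TSR1 level differed less than either model. The other 2 members of the group, described as a U3 RNA-interacting and a U3 RNA-associated protein, had ratios of 1.5 and 1.97. The second of these was low, at 8.34 RPKM in molestus and 4.24 RPKM in quinquefasciatus, and reads covered 41.6% of its length in molestus and 27.2% in quinquefasciatus.

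**Figure D3:**
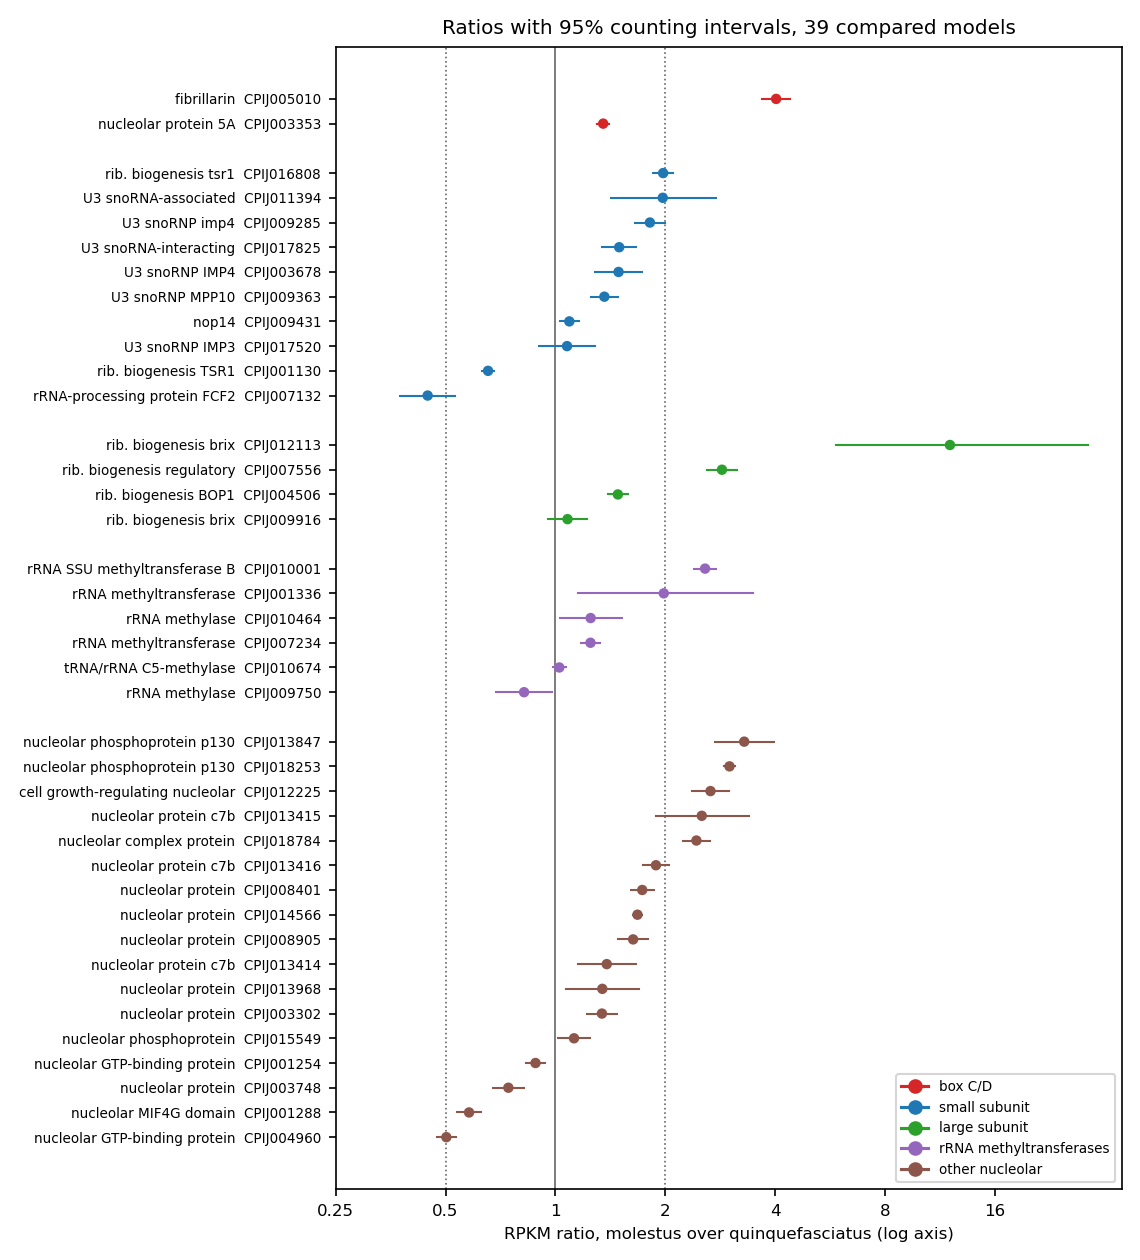
RPKM ratio, molestus over quinquefasciatus, on a log axis for the 39 compared members, with bars for the exact 95% counting interval and colours for the role groups. Within each group members are ordered by ratio, and lines mark equal levels and 2-fold. The highest point is the brix model CPIJ012113 at 12.1 with a wide interval, and FCF2 is the lowest at 0.447.

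The large subunit factors numbered 4, all with a ratio above 1 as deposited, except that the brix model CPIJ009916 fell below 1 under each rescaling, and 2 of the 4 stood at least 2-fold higher in molestus, next to 22.8% of all compared models. Their median log2 ratio was 1.03. Both depend on the grouping. The 2 nucleolar GTP-binding models, whose yeast namesakes act in large subunit assembly, were placed with the other nucleolar proteins. Their ratios were 0.502 and 0.882. The model described as ribosome biogenesis regulatory protein (CPIJ007556), the name in human of a homologue of yeast Rrs1, had 166 RPKM (1720 reads) in molestus, against 58.0 RPKM (624 reads) in quinquefasciatus, a ratio of 2.86 (2.61 to 3.14). BOP1 (CPIJ004506), a subunit of the complex that matures large subunit rRNA in mammals, had 87.6 RPKM in molestus, against 59.0 RPKM in quinquefasciatus, a ratio of 1.48 (1.39 to 1.58). Brix, a large subunit assembly factor in yeast, was the name of 2 models of the same length of 1164 bases that differed in ratio. The abundant one, CPIJ009916, had 48.4 RPKM (551 reads) in molestus and 44.8 RPKM (530 reads) in quinquefasciatus, and its ratio of 1.08 had an interval of 0.957 to 1.22. The scarce one, CPIJ012113, had 8.16 RPKM (93 reads) in molestus, against 0.676 RPKM (8 reads) in quinquefasciatus. Its ratio of 12.1 (5.88 to 28.8) was the highest of the 39, and it was the 1 member at least 4-fold higher on the log2(RPKM + 1) scale, where 4.81% of all models were. The scarce model added little to the total, and the reads of both together stood at a ratio of 1.24 (1.11 to 1.4). Reads that match both models would be missing from a table of uniquely assigned reads, so the division between same-named models is uncertain if they are near-identical. That similarity was not tested.

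The rRNA methyltransferases other than fibrillarin had 7 members, of which 6 were compared. In molestus 1 of the 6 stood at least 2-fold higher and 0 at least 2-fold lower, again next to 22.8% and 18%. Their median log2 ratio was 0.29, and 0.02 after rescaling by the median ratio. CPIJ010001 carries the bacterial name ribosomal RNA small subunit methyltransferase B, an enzyme that methylates a cytosine of small subunit rRNA in bacteria. It had 139 RPKM (2797 reads) in molestus, against 54.0 RPKM (1129 reads) in quinquefasciatus, a ratio of 2.57 (2.40 to 2.76). The most abundant of the group, a tRNA and rRNA cytosine-C5-methylase (CPIJ010674), was at nearly the same level in both libraries, at 185 RPKM in molestus and 180 RPKM in quinquefasciatus. Its ratio of 1.03 (0.984 to 1.07) was the nearest to 1 of the 39. CPIJ007234 had 103 RPKM in molestus and 82.2 RPKM in quinquefasciatus, a ratio of 1.25 (1.18 to 1.32). CPIJ009750 was the compared methyltransferase below 1, at 17.2 RPKM in molestus and 21.0 RPKM in quinquefasciatus, a ratio of 0.821 (0.686 to 0.981). The remaining compared pair, CPIJ010464 and CPIJ001336, named to complete the group, lay under 10 RPKM in both libraries with ratios of 1.25 and 1.98. The members of this group thus differed in ratio although all are named for the same kind of reaction.

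The largest group held 17 nucleolar proteins, most of them described without a more exact place in the pathway. The 2 nucleolar GTP-binding models were kept in it. In molestus 5 of the 17 stood at least 2-fold higher and 0 at least 2-fold lower, next to 22.8% and 18% of all compared models. Of the 17 ratios 13 were above 1, next to 55.4% of all compared models, and the median log2 ratio was 0.68. Both models named p130, the nucleolar phosphoprotein known in mammals as Nopp140, which accompanies small nucleolar particles, were about 3-fold higher. CPIJ018253 had 739.5 RPKM (11501 reads) in molestus, against 246 RPKM (3979 reads) in quinquefasciatus, a ratio of 3.0 (2.90 to 3.11). CPIJ013847 had 20.1 RPKM (498 reads) in molestus, against 6.10 RPKM (157 reads) in quinquefasciatus, a ratio of 3.29 (2.75 to 3.97). Unlike the pairs named TSR1 and brix, this pair kept its proportions, since CPIJ018253 stood at 36.8 times the level of CPIJ013847 (33.6 to 40.3) in molestus and at 40.4 times (34.4 to 47.7) in quinquefasciatus. A further model named nucleolar phosphoprotein without a number (CPIJ015549) had 64.5 RPKM in molestus and 57.4 RPKM in quinquefasciatus. Its ratio of 1.13 (1.02 to 1.25) fell below 1 under rescaling, to 0.916 by the median ratio and 0.975 by TMM.

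Others of the group were also higher in molestus, some of them by more than 2-fold. The cell growth-regulating nucleolar protein (CPIJ012225), the name of a nucleolar zinc finger protein in mammals, had 122 RPKM in molestus, against 45.8 RPKM in quinquefasciatus, a ratio of 2.66 (2.37 to 3.0). The nucleolar complex protein CPIJ018784, of a family that in yeast escorts pre-ribosomes through the nucleolus, had 112 RPKM in molestus, against 46.1 RPKM in quinquefasciatus, a ratio of 2.44 (2.24 to 2.65). The description of CPIJ018784 gives no number, so its subunit cannot be read from it. The 3 models named nucleolar protein c7b bear consecutive identifiers, CPIJ013414, CPIJ013415 and CPIJ013416, and were all higher in molestus. CPIJ013415 had 20.7 RPKM in molestus, against 8.20 RPKM in quinquefasciatus, a ratio of 2.52 (1.89 to 3.39), and CPIJ013416 had 58.6 RPKM in molestus, against 31.0 RPKM in quinquefasciatus, a ratio of 1.89 (1.74 to 2.04). CPIJ013414, given to complete the 3, had a ratio of 1.38 (1.15 to 1.66). The reads of all 3 stood at a ratio of 1.83 (1.71 to 1.97). Reads covered 47.0% to 56.9% of these models in molestus and 51.0% to 63.2% in quinquefasciatus. By contrast, 26 of the 35 members with at least 100 reads in both libraries were covered over more than 90% of their length in both.

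Other members of the group were lower in molestus. Nucleolar GTP-binding proteins are GTPases that act in large subunit assembly in yeast, and both models of that name had ratios below 1. CPIJ004960 had 162 RPKM (1663 reads) in molestus, against 323 RPKM (3438 reads) in quinquefasciatus, a ratio of 0.502 (0.474 to 0.533), and it lay just short of the 2-fold threshold. Its rank among all models was 637 in molestus and 288 in quinquefasciatus. Despite these read numbers, reads covered 74.1% of its length in molestus and 74.2% in quinquefasciatus. CPIJ001254 had 102 RPKM (2108 reads) in molestus and 116 RPKM (2482 reads) in quinquefasciatus, a ratio of 0.882 (0.832 to 0.935). The nucleolar MIF4G domain protein CPIJ001288, with a domain shared with a translation initiation factor, had 34.1 RPKM in molestus, against 58.8 RPKM in quinquefasciatus, a ratio of 0.580 (0.539 to 0.624). Of the 6 models described only as nucleolar protein, 5 had ratios above 1, and the exception was CPIJ003748, at 33.1 RPKM in molestus and 44.5 RPKM in quinquefasciatus, a ratio of 0.743 (0.673 to 0.820). The most abundant of these 6, CPIJ014566, had 561 RPKM (11610 reads) in molestus, against 334 RPKM (7181 reads) in quinquefasciatus, a ratio of 1.68 (1.63 to 1.73).

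Of the machinery that works with these proteins beyond the rule, each list in this paragraph had a median log2 ratio above 0 as deposited. The median of all compared models was 0.18, or 0.47 for those that reached 10 RPKM. The counts of all lists below stand next to 22.8% of all compared models at least 2-fold higher in molestus and 18% at least 2-fold lower, or 29.0% and 14.2% of those that reached 10 RPKM. RNA helicases, many of which remodel pre-ribosomes, had 14 of 45 compared models at least 2-fold higher in molestus and 0 lower, with a median log2 ratio of 0.69. The list takes in helicases of other processes, such as WM6 (CPIJ014241), an mRNA export factor in Drosophila, at 904 RPKM in molestus and 369 RPKM in quinquefasciatus. RNA polymerase I, which transcribes the rRNA precursor, had 1 of 4 models at least 2-fold higher and 0 lower, with a median of 0.34. Its initiation factor rrn3 (CPIJ010951) had 105 RPKM in molestus, against 36.3 RPKM in quinquefasciatus, a ratio of 2.88 (2.64 to 3.15), while the subunit RPA2 (CPIJ002457) had a ratio of 1.26 (1.16 to 1.37). RNA polymerase III, which makes 5S rRNA and tRNA, had 6 of 8 models at least 2-fold higher and 0 lower, with a median of 1.19. Assembly factors with names outside the rule had 3 of 9 models at least 2-fold higher and 0 lower, with a median of 0.26 that became -0.03 under rescaling by the median ratio. Among them NOB1 (CPIJ012739), the nuclease of the last 18S cut in yeast, had 217 RPKM in molestus and 329 RPKM in quinquefasciatus, a ratio of 0.660 (0.628 to 0.693). An H/ACA subunit (CPIJ000795) had 116 RPKM in molestus and 55.8 RPKM in quinquefasciatus, a ratio of 2.08 (1.94 to 2.23).

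The products and the regulators of the pathway gave further contrasts. Cytosolic ribosomal proteins had 4 of 108 compared models at least 2-fold higher in molestus and 30 lower, with a median log2 ratio of -0.81. Among the most abundant, 60S ribosomal protein L18 (CPIJ000205) had 4603 RPKM in molestus and 11036 RPKM in quinquefasciatus. The median of the ribosome builders, 0.56, and that of the ribosomal proteins lay on opposite sides of 0, also under each of the 3 rescalings. As deposited, the sign of the builders was not particular to them. Members that reached 10 RPKM had a median of 0.44, next to 0.47 over all models that did. RPKM is relative to all assigned reads, of which cytosolic ribosomal proteins held 13.6% in molestus and 25% in quinquefasciatus. Mitochondrial ribosomal proteins had 9 of 63 models at least 2-fold higher and 4 lower, with a median of 0.10 that was negative under each rescaling. The growth control list took in UDP-glucuronate enzymes through its text pattern, and its median was -0.94 over 29 models. Left without them, as chosen once the data had been seen, the list had a median of 0.82 over 8 models, with 4 at least 2-fold higher and 1 lower. In that list Myc (CPIJ009795), a transcription factor known to drive ribosome biogenesis genes in Drosophila and mammals, had 232 RPKM in molestus and 175 RPKM in quinquefasciatus, a ratio of 1.33 (1.27 to 1.39).

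**Figure D4:**
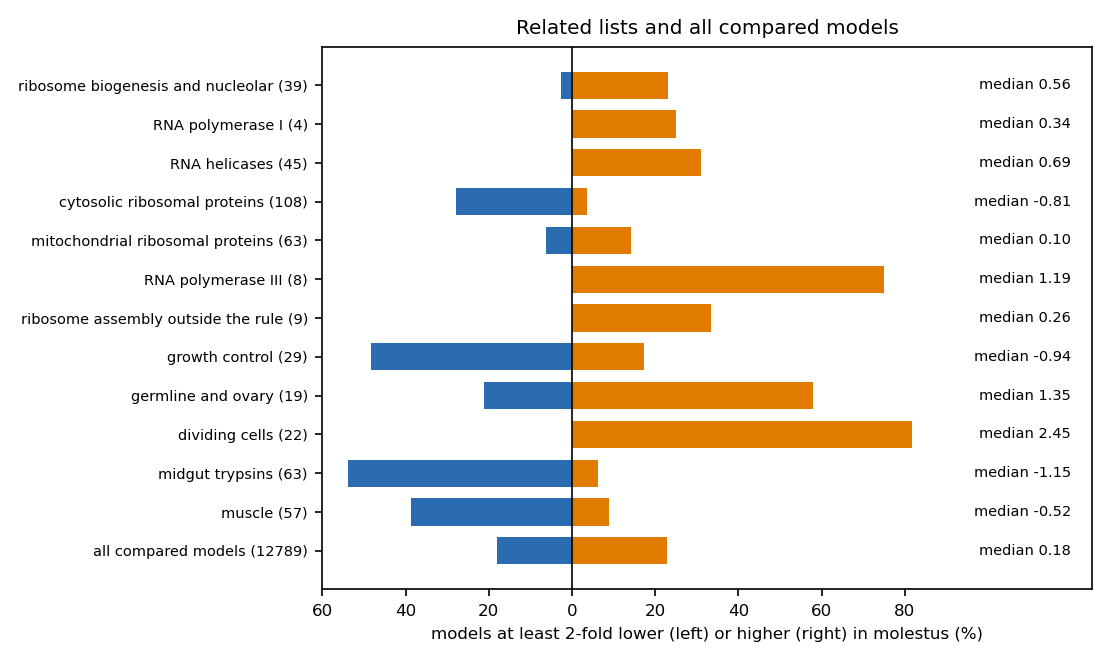
Percent of the compared models of each list that were at least 2-fold lower (left) or higher (right) in the molestus library on the log2(RPKM + 1) scale, with the number compared in parentheses and the median log2 ratio at the right. The growth control bar includes the UDP-glucuronate enzymes. The ribosome biogenesis bar reaches about as far right as that of all compared models and less far left.

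Markers of tissues and of dividing cells also differed between the libraries. As background for the counts at 0 reads below, 14834 of all 16198 models had reads in molestus and 15438 in quinquefasciatus. The dividing cell list had 18 of 22 compared models at least 2-fold higher in molestus and 0 lower, and its summed level was 6471 RPKM in molestus and 1151 RPKM in quinquefasciatus. At 0 reads in the molestus library were 4 of its 28 models, all scarce models described as MCM7. None of the 28 was at 0 reads in quinquefasciatus. In the other direction mcm7-A (CPIJ000160), picked outside the naming rule, had 232 RPKM in molestus and 13.0 RPKM in quinquefasciatus. The pattern of the list also took in a calcyclin-binding protein. The germline and ovary list had 11 of 19 models at least 2-fold higher and 4 lower, with summed levels of 1446 RPKM in molestus and 492 RPKM in quinquefasciatus and no model at 0 reads in either. The list taken for the midgut was matched by the word trypsin in the description, and no label places its models in that tissue. It had 4 of 63 models at least 2-fold higher and 34 lower, with summed levels of 2444 RPKM in molestus and 14385 RPKM in quinquefasciatus. Of its 101 models, 17 were at 0 reads in molestus and 9 in quinquefasciatus. The muscle list, likewise matched by names such as myosin and so not limited to muscle forms, had 5 of 57 models at least 2-fold higher and 22 lower. Its summed levels were 3829 RPKM in molestus and 6522 RPKM in quinquefasciatus. Of its 71 models, 3 were at 0 reads in molestus and 4 in quinquefasciatus. In pools of whole females, more cells of a type and more RNA per cell cannot be told apart, and the part of tissue makeup in the levels of the ribosome biogenesis models was not tested.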

How the data were processed

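Per the file headers, the authors deposited for each transcript model a count of uniquely assigned reads, its length, an RPKM value and the percent of the length covered by reads. The listed counts summed to the library totals in the headers, and RPKM recomputed from count, length and total matched. A model unlisted in 1 table was taken as 0 reads there. The sources used here name no aligner, counter, filter or release of the models. Both libraries were counted on the same set of CPIJ models. Whether reads of either taxon match these models less well was not tested, and such a difference would bear on the ratios and on counts of 0. Of all lengths, 89.1% were multiples of 3, and 32 of the 40 members' lengths were. The libraries do not keep strand, so overlapping antisense genes cannot be told apart.

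Role groups were assigned by hand from the descriptions alone. The members and lists were chosen with earlier results of these data known. Named members were up to 4 per role group by mean RPKM, and, among those with 10 RPKM and 50 reads or more in their higher library, the 10 with the largest ratio in each direction and the 5 nearest to equal. This named 28 of 40, and the others are given by range or said to be chosen otherwise. Up to 3 models per related list followed their mean RPKM, except mcm7-A.

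Levels were compared as log2 ratios of (RPKM + 1) over models that reached 1 RPKM in either library, and single models as RPKM ratios with exact conditional binomial intervals. A pseudocount understates the ratio of low models. A count test needs replicates and was not run. The tools were Python 3.11.15 with scipy 1.17.1, numpy 2.4.6, pandas 2.3.3 and, for figures, matplotlib 3.10.9. edgeR 4.0.16 (R 4.3.3) gave TMM factors of 1.07 for molestus and 0.931 for quinquefasciatus. Before use, the calculations were tested on simulated counts. Alternatives were pseudocounts of 0.1 and 10, no minimum and a minimum of 10 RPKM, 3 rescalings, a 4-fold threshold, a floor of 3 reads, other totals for the shares and the list without the model that also names tRNA.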

Additional observations from a re-analysis of the deposited data

How the results depend on the processing

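The median ratio of the ribosome biogenesis models stayed above 0 under every alternative run and was lowest, at 0.27, under rescaling by the median ratio. The median of all models was also above 0 in every run without rescaling. At a minimum of 10 RPKM it was 0.47, next to 0.44 for the ribosome biogenesis models. It was below 0 under each rescaling, a background not taken at the 10 RPKM minimum. Of the ribosome biogenesis models, 1 was at least 2-fold lower in molestus as reported. That count was 0 at a pseudocount of 10, 2 after rescaling by TMM, 3 after rescaling by the median ratio and 3 by the sum without the most abundant models. At a 4-fold threshold 1 model was higher and 0 were lower, next to 615 and 508 of all models. Over all models, 1326 were higher and 618 lower at a pseudocount of 10, and 1139 were lower at a minimum of 10 RPKM. As shares of summed RPKM the members held 0.559% in molestus and 0.335% in quinquefasciatus, and of reads without cytosolic ribosomal proteins 0.901% in molestus and 0.735% in quinquefasciatus. Among 28 named members, 2 with a counting interval that excludes 1 crossed a ratio of 1 with rescaling: nop14 (CPIJ009431), to 0.946 by TMM and 0.889 by the median ratio, and nucleolar phosphoprotein CPIJ015549, to 0.975 and 0.916 likewise. A further 3 whose interval holds 1 also crossed it, to 0.933 and 0.877 for IMP3 (CPIJ017520), 0.935 and 0.879 for the brix model CPIJ009916, and 0.888 and 0.835 for the C5-methylase CPIJ010674. The growth control median was 0.82 without the UDP-glucuronate models, an alternative added after seeing the data. No member was at 0 reads in either library, so the floor of 3 reads moved none. No paired analysis was possible because each taxon had 1 library.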
